A study of Mus musculus with 2 samples.

Results

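Arg1-positive C1q-low cells were a small set of tumor myeloid barcodes that carried RNA for arginase 1 and almost none for the complement subunits C1qa, C1qb and C1qc. They were picked by their own counts of unique molecular identifiers (UMIs, each standing for 1 captured RNA molecule). A barcode needed at least 500 UMIs, at least 300 genes and at most 10% of its UMIs from mitochondrially encoded genes. Of the named genes it needed at least 2 Arg1 UMIs, at least 5 UMIs over Lyz2, Cd68, Csf1r and Ctsb from at least 2 of them, and at most 2 over C1qa, C1qb and C1qc. It could hold at most 1 UMI over Cd3d, Cd3e, Cd3g, Ncr1, Klrb1c and Klre1, and fewer than 10 over S100a8 and S100a9. The rule was met by 291 of 11481 barcodes that passed the UMI, gene and mitochondrial limits, 113 of 5873 in the ketogenic diet library and 178 of 5608 in the normal diet library. Levels of the genes in the rule therefore describe the choice and are not results.

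The tumors were MC38, a mouse colon adenocarcinoma line, injected into the flank of C57BL/6J females aged 6 to 8 weeks. Mice of the ketogenic diet library received that diet from day 4, and mice of the normal diet library were fed normal diet. Both libraries were made from tumors taken at day 14, from which dead cells had been removed and CD45-positive leukocytes enriched on magnetic beads. Each library pooled 5 mice, whose cells carry no mark of the animal, and there was 1 library per diet, so no difference between diets can be tested and intervals below are exact 95% intervals that cover counting error only.

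Arginase 1 splits arginine into urea and ornithine, the starting point of polyamine and proline synthesis, and its removal of arginine can limit T cell proliferation. In mouse tumors it marks myeloid cells that lie along the path from blood monocytes to macrophages, often together with genes of low oxygen and heme breakdown. C1q, the first component of the classical complement pathway, marks more mature macrophages, which also carry MHC class II for antigen presentation.

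The deposited matrices held 42710007 UMIs in the ketogenic and 37575996 in the normal diet library. The selected cells summed to 443221 and 769306 UMIs, or a median per cell of 3603 and 3802; the median cell held 1389 and 1552.5 genes. Their median mitochondrial share was 0.600% under the ketogenic and 1.29% under the normal diet. The libraries shared 7 passing barcode sequences, 0 of them among the selected cells.

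The label of these cells as macrophages held only in part. Besides Arg1, the class is marked by Mmp12 (macrophage elastase), Hmox1 (heme oxygenase 1), Gpnmb (a lysosomal glycoprotein) and Pf4 (platelet factor 4, a chemokine). Hmox1 UMIs were found in 66 of 113 ketogenic and 124 of 178 normal diet cells. Mmp12 was found in 17 and 33 cells, Gpnmb in 26 and 42, and Pf4 in 25 and 59, so these 3 markers belonged to a minority of the cells in either library. At the same time 85.0% and 84.8% of the cells held at least 3 UMIs of the monocyte genes Ly6c2, Chil3 and Plac8 from at least 2 of them. Adgre1, which encodes the macrophage antigen F4/80, was found in 27 and 70 cells. The macrophage genes Apoe and Ms4a7 were found in more, 87 and 156 cells for Apoe and 58 and 118 for Ms4a7. With cells thinned to 1500 UMIs, Ly6c2 was found in 80.9% and 76.6% and Adgre1 in 9.09% and 22.9%. In myeloid barcodes with no Arg1 UMI and at least 10 C1q UMIs, the thinned shares were 63.3% and 76.5% for Ly6c2. For Adgre1 they were 21.6% and 23.3%, so under the normal diet neither gene set the cells apart from those macrophages. The cells are therefore called by their rule here and given no other name.

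Markers of T and NK cells and of neutrophils were present in part of the cells, and those of other cell types were low. Basophil and mast cell markers summed to 0 and 3.90 CPM (a gene's UMIs scaled to the same total in every class and library), eosinophil markers to 2.26 and 1.30 CPM, and dendritic cell markers to 99.3 and 75.4 CPM, with Xcr1, Siglech and Ccr9 at 0 in both libraries. The 15 T and NK cell markers summed to 950 and 879 CPM, against 9284 and 6646 CPM in barcodes of at most 100 UMIs, which hold free RNA. At least 3 UMIs of that list from at least 2 genes were present in 16 ketogenic and 44 normal diet cells. The 14 neutrophil markers summed to 562 and 572 CPM, with Ly6g and Wfdc21 at 0 in both libraries, and 23 and 41 cells held at least 3 UMIs of them from at least 2 genes. Tumor and stroma markers summed to 111 and 63.7 CPM with the epithelial genes Krt8, Krt18 and Epcam at 0. In all, 35 of 113 ketogenic and 72 of 178 normal diet cells held at least 3 UMIs from at least 2 genes of some other cell type's list. They are called mixed cells below, and 78 and 106 cells remain without them. The neutrophil list holds S100a8 and S100a9, of which the rule allowed fewer than 10 UMIs, and Mmp8, Trem1 and Acod1. Whether the mixed cells were barcodes of several cells was not tested. In the comparison classes below, T and NK cell markers summed to 592 to 756 CPM (ketogenic) and 885 to 1282 CPM (normal diet). Neutrophil markers summed to 305 to 369 and 319 to 464 CPM there.

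The cells made up 1.92% (1.59 to 2.31) of passing barcodes under the ketogenic and 3.17% (2.73 to 3.67) under the normal diet, a log2 ratio of -0.72 (-1.08 to -0.37). All myeloid barcodes that met the rule apart from its Arg1 and C1q limits were likewise fewer, at 28.8% and 42.9% of passing barcodes. Within those myeloid barcodes the Arg1-positive C1q-low cells made up 6.67% (5.53 to 7.97) under the ketogenic and 7.40% (6.38 to 8.52) under the normal diet, a log2 ratio of -0.15 (-0.50 to 0.20). Myeloid barcodes that met the same Arg1 minimum but carried at least 10 C1q UMIs made up 5.38% (4.35 to 6.56) and 8.10% (7.04 to 9.27). Of all myeloid barcodes with at least 2 Arg1 UMIs, 50.0% and 43.2% fell within the C1q limit. Whether the share of myeloid cells was lower or higher under the ketogenic diet turned on the C1q limit: with no C1q UMI allowed the log2 ratio was 0.13.

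The limits of the rule cut through a continuous range. At exactly 2 Arg1 UMIs stood 24 ketogenic and 37 normal diet cells, and just outside, at 1 Arg1 UMI, 52 and 107 barcodes. C1q UMIs were 0 in 104 and 135 of the selected cells, and just outside, at 3 C1q UMIs, stood 4 and 6 barcodes. Of barcodes within the myeloid, Arg1 and C1q limits, the lymphoid limit left out 72 and 75, and the S100a8 and S100a9 limit left out 14 and 13. A barcode that failed both limits may be in both counts.

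For comparison, 3 other classes were taken from the same myeloid gate. Arg1-positive C1q-positive macrophages had at least 2 Arg1 and at least 10 C1q UMIs (91 ketogenic and 195 normal diet barcodes). Arg1-negative C1q-positive macrophages had no Arg1 UMI and at least 10 C1q UMIs (142 and 389). The monocyte gate took barcodes with no Arg1 UMI, at most 2 C1q UMIs and the monocyte genes named above (1106 and 1197). All were cut from the same counts, so the comparisons are descriptions, and a gene is called here when it differed 2-fold in the same direction in both libraries, with 10 CPM added to each level.

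Against Arg1-negative C1q-positive macrophages, the Arg1-positive C1q-low cells carried more RNA of the response to low oxygen and less of MHC class II and of the cell cycle. Of 4875 genes measured, 65 (1.33%) were 2-fold higher and 43 (0.882%) 2-fold lower in both libraries. Of 20 measured genes of the hypoxia list, 13 were 2-fold higher and 0 lower, with list medians of 1.23 and 1.47 on the log2 scale under the ketogenic and the normal diet, against -0.07 and -0.06 for all genes measured. Without the mixed cells 11 of 19 were higher and 0 lower.

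Hilpda, which coats lipid droplets and blocks their breakdown under low oxygen, stood at 902 CPM in ketogenic and 612 CPM in normal diet cells, against 152 and 106 CPM in Arg1-negative C1q-positive macrophages. Egln3, a prolyl hydroxylase that marks hypoxia-inducible factor for destruction and is itself induced by it, stood at 94.8 and 116 CPM, against 5.39 and 8.63 CPM. Bnip3, a mitophagy receptor, stood at 379 and 367 CPM, against 119 and 85.4 CPM. Each of the 3 genes was higher in the Arg1-positive C1q-low cells under both diets, by intervals that did not overlap. Hilpda was also present in T and NK cell barcodes, at 182 and 144 CPM. Ero1l (named Ero1a in newer annotation), an oxidase of the endoplasmic reticulum, reached 343 and 331 CPM, against 82.2 and 62.7 CPM. Vegfa, the angiogenic growth factor, reached 219 and 172 CPM, against 78.2 and 54.1 CPM. Ndrg1, Egln1, Ankrd37, Mxi1, Anxa2, Nos2, Mt1 and Mt2 were the other called genes. Cited2, another target of hypoxia-inducible factor, stood at 230 and 187 CPM, against 261 and 214 CPM, and was not called.

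Glycolysis genes leaned the same way by less: 3 of 18 measured genes were 2-fold higher and 0 lower, with medians of 0.83 and 0.96. Slc2a1, the glucose transporter GLUT1, stood at 264 and 274 CPM, against 87.6 and 89.9 CPM, and the kinase gene Pgk1 at 1203 and 1152 CPM, against 516 and 427 CPM. Gys1, glycogen synthase, was the third. Ldha, lactate dehydrogenase A, stood at 1654 and 1408 CPM, against 910 and 830 CPM, short of 2-fold.

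Hypoxia-inducible factor binds a core of ACGTG. In RefSeq windows of the 250 bases before each annotated start (build GRCm38.p6), that core was present on either strand in 24 of the 41 hypoxia and glycolysis list genes with a window (58.5%), of 47 listed, and in 4998 of all 27025 genes with one (18.5%). It was in 0 of the 3 genes with a window among Arg1, Mmp12, Hmox1, Gpnmb and Pf4. Arg1 and Hmox1 had no window, so their promoters were not searched. By window the shares were 47.4% of 57 and 16.6% of 32851. The list genes were counted whether called here or not, and were listed for a known response to low oxygen or role in glycolysis. The contrast therefore describes the lists and not these cells. A match describes letters and is not evidence of binding. The windows of 3 genes from the comparison above are shown, read 5′ to 3′ along the gene, with the core or its reverse complement CACGT in capitals. In Bnip3 the forward and the reverse match overlap as CACGTG.
Egln3, chr12:54203875-54204124, minus strand: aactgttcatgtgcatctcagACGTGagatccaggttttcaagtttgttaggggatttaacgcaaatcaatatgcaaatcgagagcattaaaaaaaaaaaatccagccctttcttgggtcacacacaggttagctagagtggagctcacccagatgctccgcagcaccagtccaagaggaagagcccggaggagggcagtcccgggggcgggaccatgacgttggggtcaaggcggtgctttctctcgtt
Bnip3, chr7:138909507-138909756, minus strand: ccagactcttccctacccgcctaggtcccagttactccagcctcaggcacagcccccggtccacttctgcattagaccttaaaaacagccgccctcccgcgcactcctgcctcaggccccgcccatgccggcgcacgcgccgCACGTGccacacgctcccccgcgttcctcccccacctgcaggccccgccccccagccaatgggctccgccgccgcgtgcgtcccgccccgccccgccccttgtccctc
Slc2a1, chr4:119108495-119108744, plus strand: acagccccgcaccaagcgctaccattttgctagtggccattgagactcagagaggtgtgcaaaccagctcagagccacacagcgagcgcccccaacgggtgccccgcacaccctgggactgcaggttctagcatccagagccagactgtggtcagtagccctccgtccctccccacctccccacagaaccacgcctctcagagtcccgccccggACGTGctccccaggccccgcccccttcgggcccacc
The match began 229 bases before the start in Egln3, 108 bases before it in Bnip3 and 36 bases before it in Slc2a1.

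Markers of the class stood high against the same macrophages. Hmox1 reached 1227 CPM in ketogenic and 1513 CPM in normal diet cells, against 245 and 234 CPM, and Mmp12 309 and 268 CPM, against 33.7 and 82.2 CPM. Pf4 stood at 900 and 935 CPM, against 295 and 362 CPM, and Gpnmb at 217 and 194 CPM, against 41.8 and 91.8 CPM. With Arg1, which the rule used, all 5 were called, against 2 of the 5 without the mixed cells. Hmox1 was the only called gene of the 9 measured for heme and iron handling: Ftl1, the ferritin light chain, stood at 11586 and 11892 CPM, against 7106 and 7100 CPM. Of 13 measured NRF2 targets, genes of the oxidative stress response, Hmox1 and the cystine transporter gene Slc7a11 (54.1 and 58.5 CPM, against 20.2 and 20.4 CPM) were called.

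Matrix and clotting genes formed a further group, with 7 of 18 measured genes 2-fold higher and 0 lower. Besides Mmp12 they were Thbs1 (thrombospondin 1; 1108 and 1078 CPM, against 236 and 270 CPM), Adam8, Mmp8 (neutrophil collagenase), F10 and F7 (coagulation factors X and VII) and Vcan (versican). Inhba, the activin A subunit, stood at 208 and 58.5 CPM, against 26.9 and 5.91 CPM, and Sdc1, syndecan 1, at 72.2 and 70.2 CPM, against 8.08 and 6.81 CPM. Cxcl3, a neutrophil-attracting chemokine, showed the highest ratio by the smaller of both libraries, at 345 and 97.5 CPM, against 14.8 and 0.454 CPM. Of the lipid-associated macrophage list 4 of 23 measured genes were called, Gpnmb, Spp1 (osteopontin), Cd36 (a fatty acid receptor) and Plin2 (a lipid droplet coat). Spp1 stood at 2071 and 1998 CPM, against 765 and 485 CPM. It was present at 1064 and 1122 CPM in T and NK cell barcodes of the same libraries, so its background in cells of other types was high.

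On the lower side stood antigen presentation. Of 7 measured MHC class II genes 5 were 2-fold lower and 0 higher, with medians of -1.61 and -1.60, and of -2.59 and -1.76 over 6 genes without the mixed cells. H2-Ab1 stood at 641 CPM in ketogenic and 671 CPM in normal diet cells, against 2470 and 2894 CPM in Arg1-negative C1q-positive macrophages, and the invariant chain Cd74 at 3123 and 2175 CPM, against 7824 and 5874 CPM. H2-Aa, H2-Eb1 and H2-DMb1 were the others. Of 11 measured cell cycle genes 5 were lower, among them Top2a, topoisomerase II alpha, at 4.51 and 6.50 CPM, against 109 and 45.9 CPM. Rhox5, on the tumor and stroma marker list, was lower too, at 13.5 and 7.80 CPM, against 108 and 76.8 CPM. Tumor and stroma markers summed to 111 and 63.7 CPM in the cells, against 419 and 210 CPM in those macrophages. The part of tumor RNA in the cell cycle difference was not tested. Cxcl9, an interferon-gamma-induced chemokine for T cells, stood at 129 and 52.0 CPM, against 534 and 318 CPM. None of 41 measured type I interferon genes was called either way.

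**Figure D1:**
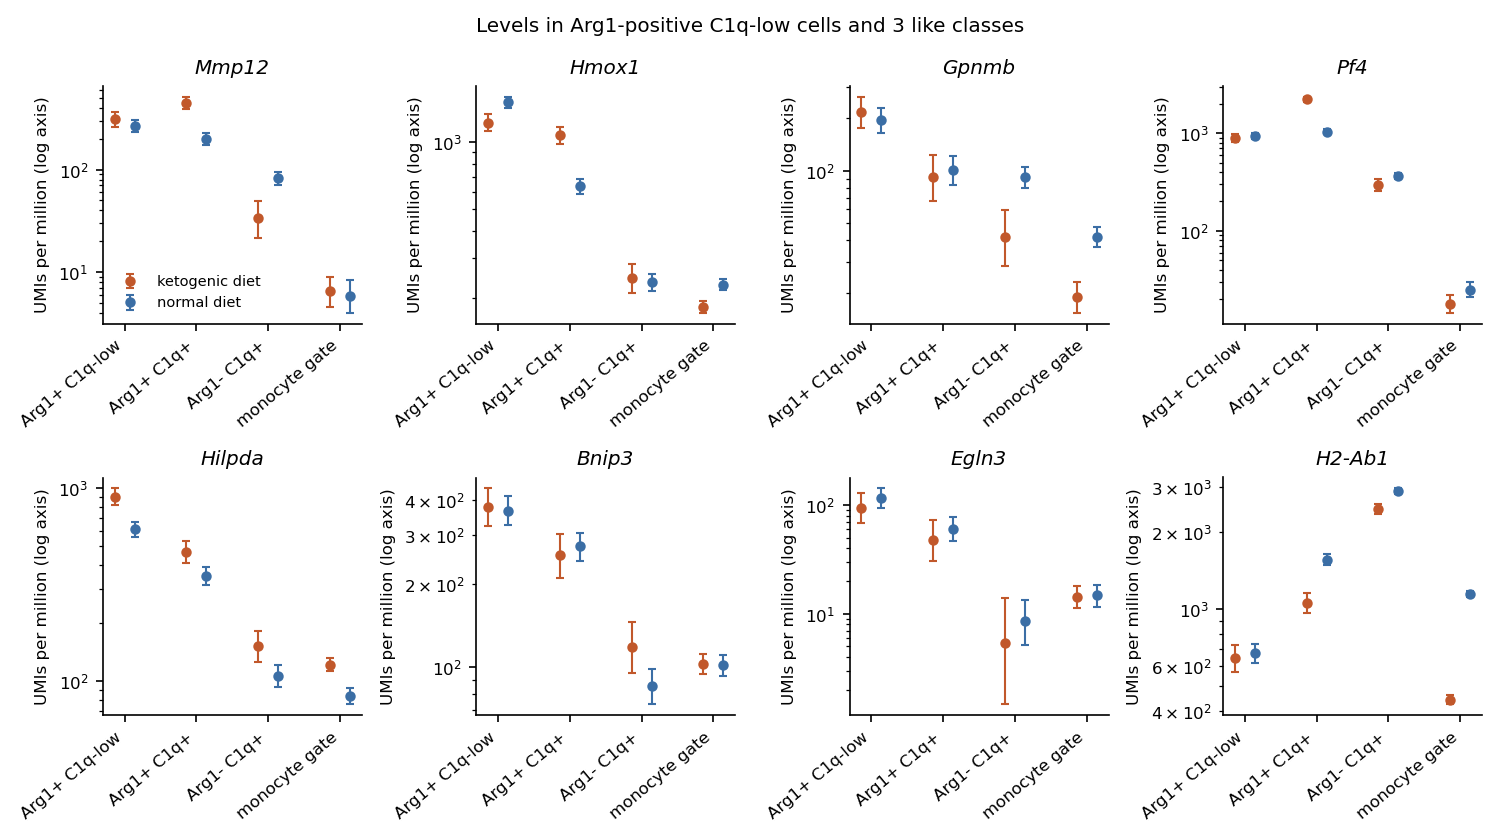
Levels of 8 genes (panels, CPM on a log axis) in Arg1-positive C1q-low cells and 3 comparison classes, ketogenic diet in orange left of normal diet in blue, with exact 95% counting intervals of each library. Hilpda, Bnip3 and Egln3 are highest in the Arg1-positive C1q-low cells, and H2-Ab1 is highest in Arg1-negative C1q-positive macrophages. Mmp12 and Pf4 are lowest in the monocyte gate.

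Against Arg1-positive C1q-positive macrophages the cells differed little. Of 4648 genes measured, 9 (0.194%) were 2-fold higher and 7 (0.151%) 2-fold lower in both libraries, 3 of the lower ones being the C1q genes of the rule. Of the markers Arg1, Mmp12, Hmox1, Gpnmb and Pf4, 0 were called, and Pf4 stood at 900 and 935 CPM, against 2223 and 1039 CPM. Hypoxia genes leaned higher in the C1q-low cells, with medians of 0.62 and 0.28, but 0 of 21 were called. Hilpda stood at 902 and 612 CPM, against 466 and 351 CPM.

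Highest against that class were Inhba at 208 and 58.5 CPM, against 12.5 and 4.67 CPM, and Dmkn, dermokine, at 111 and 58.5 CPM, against 14.6 and 11.2 CPM. Ifitm6, Vcan and Thbs1, which are on the classical monocyte list, were also 2-fold higher, with Vcan at 192 and 134 CPM, against 37.6 and 53.2 CPM. Lowest was Ccl8, a chemokine of tissue macrophages, at 9.02 and 101 CPM, against 77.4 and 454 CPM. Fcrls, an Fc receptor-like scavenger gene, and Mrc1, the mannose receptor CD206, followed, with Mrc1 at 38.4 and 52.0 CPM, against 102 and 119 CPM. H2-Eb1 stood at 386 and 396 CPM, against 715 and 966 CPM.

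Against the monocyte gate the cells carried far more macrophage RNA, while part of the classical monocyte list was lower. Of 4874 genes measured, 122 (2.5%) were 2-fold higher and 95 (1.95%) 2-fold lower in both libraries. Of 22 measured lipid-associated macrophage genes 14 were higher and 0 lower, with medians of 1.57 and 1.54. Trem2, a lipid-sensing receptor, stood at 228 and 277 CPM, against 44.1 and 60.1 CPM, and Apoe, apolipoprotein E, at 2847 and 3584 CPM, against 693 and 1070 CPM. Of 11 measured cathepsin and legumain genes 5 were higher and 0 lower, Ctsd and Lgmn among them, and Ctsb, which the rule used. The hypoxia list had 9 of 21 genes higher and 0 lower.

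Arg1 apart, Pf4 and Mmp12 ranked first by the smaller of the ratios in both libraries with 10 CPM added, with Pf4 at 900 and 935 CPM, against 17.9 and 25.1 CPM in the monocyte gate, and Mmp12 at 309 and 268 CPM, against 6.53 and 5.93 CPM. Of 14 measured chemokine genes 7 were higher, including the monocyte-recruiting Ccl7 at 1956 and 1409 CPM, against 236 and 262 CPM. Both ferritin genes were higher, Fth1 with 27343 and 20581 CPM, against 6676 and 7859 CPM. Of 21 measured classical monocyte genes 7 were lower, 0 higher and 14 not called, with medians of -0.13 and -0.55. Among the lower ones was Hp, haptoglobin, at 140 and 55.9 CPM, against 534 and 317 CPM. That list holds Ly6c2, Chil3 and Plac8, by which the monocyte gate chose its barcodes, so their levels there follow from the choice. Ly6c2, which the gate used, stood at 3371 and 3393 CPM, against 2493 and 3694 CPM.

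Among the 10 lowest genes against the monocyte gate were Rhox5, Shisal2b, Phgdh, Serpinh1, Col6a2 and the division genes Top2a and Ube2c. Of 13 measured cell cycle genes 7 were lower and 0 higher. Rhox5, on the tumor and stroma marker list, stood at 13.5 and 7.80 CPM, against 279 and 180 CPM. Serpinh1 and Col6a2, genes of collagen-making cells, had no UMI in the Arg1-positive C1q-low cells. Tumor and stroma markers summed to 111 and 63.7 CPM in the cells, against 753 and 528 CPM in the monocyte gate, and the part of barcodes holding more than 1 cell in this difference was not tested.

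**Figure D2:**
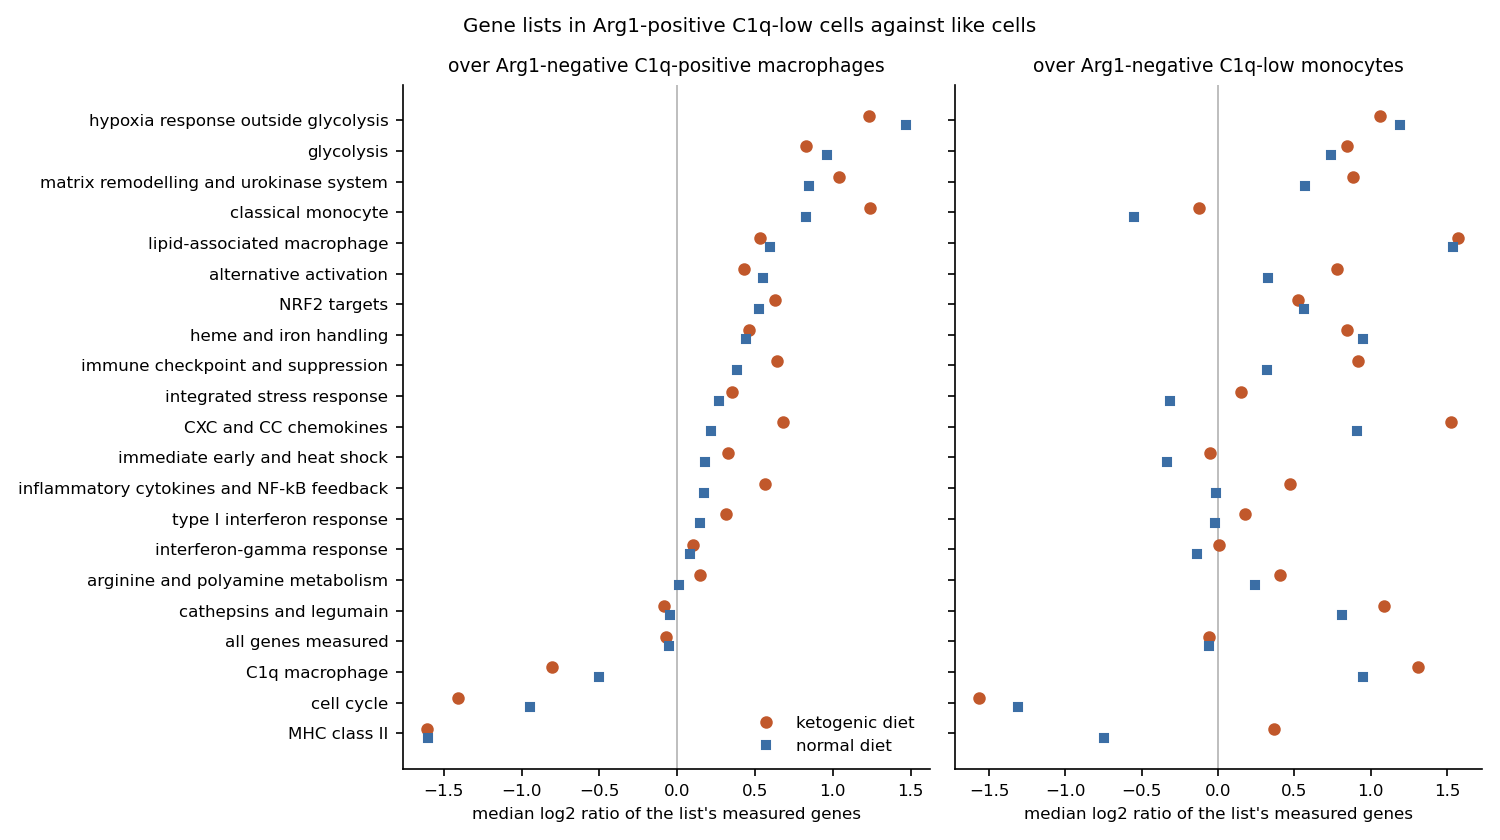
Median log2 ratio of each gene list in Arg1-positive C1q-low cells over Arg1-negative C1q-positive macrophages (left) and over the monocyte gate (right), with ketogenic diet as circles above normal diet as squares. Hypoxia and glycolysis lists lie to the right of 0 in both panels, the MHC class II list lies near -1.6 on the left, and the lipid-associated list lies near 1.5 on the right.

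The cells were far from uniform, and their Arg1 level ordered several other genes. They were split at 2 to 4 Arg1 UMIs (48 ketogenic and 72 normal diet cells), 5 to 19 (51 and 84) and 20 or more (14 and 22). Since the rule used Arg1, these trends are descriptions. Median depth differed little over the 3 bins of the ketogenic diet library (3546, 3600 and 3775 UMIs), while depths of the normal diet bins are not given here. The lowest normal diet bin held a barcode of 30351 UMIs, described further on, with 2 Arg1 and 0 Mmp12 UMIs. Its part in the levels of that bin was not tested.

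Pf4 stood at 150, 545 and 4284 CPM from the lowest to the highest bin under the ketogenic diet and at 138, 809 and 4277 CPM under the normal diet. Mmp12 stood at 51.8, 368 and 844 CPM and at 87.8, 241 and 1016 CPM. Both genes were highest in the cells richest in Arg1. Cxcl2, a neutrophil attractant, stood at 1111, 2171 and 6931 CPM and at 235, 402 and 2993 CPM. The summed hypoxia list stood at 6755, 7527 and 10851 CPM and at 5011, 8056 and 11356 CPM. The summed glycolysis list stood at 14218, 14786 and 18956 CPM and at 11275, 15492 and 19887 CPM. Both sums were highest in the top bin of each library.

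Type I interferon genes ran the other way, at 27290, 22194 and 15135 CPM under the ketogenic and 30036, 25109 and 20389 CPM under the normal diet. Ly6c2 was lowest in the top bin, at 1786 and 1764 CPM. The MHC class II sum was lowest there as well, at 1307 and 2836 CPM, although 1 barcode held 35.9% of the H2-Ab1 UMIs of all ketogenic diet cells. The bins of 20 or more rest on 14 and 22 cells. The cells short of 3 UMIs from at least 2 of Ly6c2, Chil3 and Plac8 numbered 17 and 27. Mmp12 stood at 952 and 664 CPM in them, against 200 and 201 CPM in the cells that reached that limit. Type I interferon genes stood at 9630 and 9109 CPM, against 25525 and 29568 CPM. Pf4 was higher in them under the ketogenic diet only, at 4682 CPM against 261 CPM, with 897 CPM against 941 CPM under the normal diet.

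**Figure D3:**
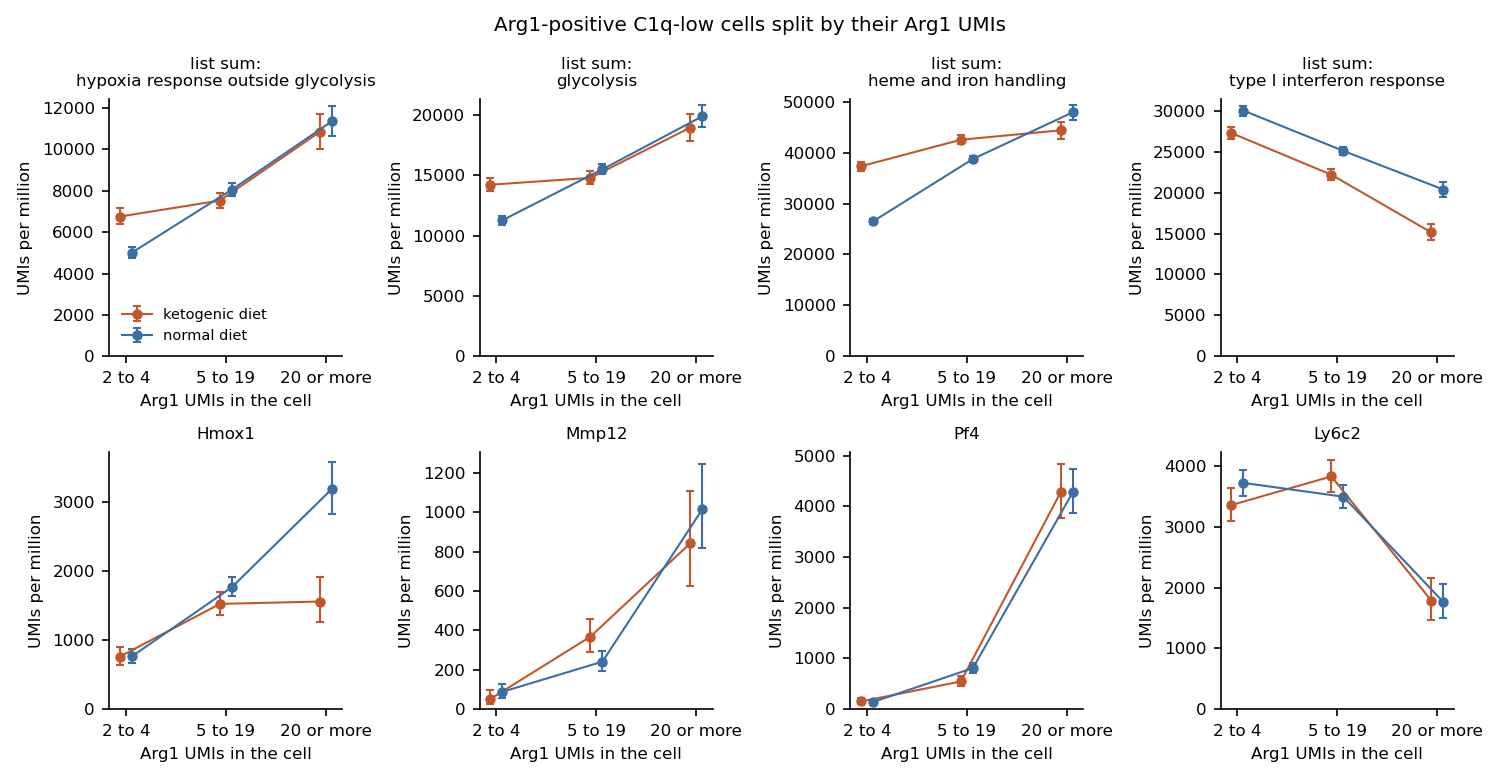
Levels (CPM, linear axes from 0) of 4 list sums and 4 genes in Arg1-positive C1q-low cells split by their Arg1 UMIs, ketogenic diet in orange and normal diet in blue, with exact 95% counting intervals. Pf4 and Mmp12 climb steeply into the bin of 20 or more, hypoxia and glycolysis sums climb less, and type I interferon genes and Ly6c2 are lowest there.

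Between diets, chemokine and inflammatory genes stood higher in the ketogenic diet cells, while the medians of the hypoxia and glycolysis lists lay near 0. A gene was called at 1.5-fold with 10 CPM added. Of 5152 genes measured, 219 (4.25%) were higher and 577 (11.2%) lower under the ketogenic diet, with a median log2 ratio of -0.08, so a share of lower genes near 11.2% is the background. In bulk sums such as these, fewer cells of a kind and less RNA per cell cannot be told apart.

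Arg1 stood at 2166 CPM in ketogenic and 2073 CPM in normal diet cells, Mmp12 at 309 and 268 CPM, Hmox1 at 1227 and 1513 CPM, Gpnmb at 217 and 194 CPM, and Pf4 at 900 and 935 CPM. None of the 5 was called, but without the mixed cells Mmp12 stood at 341 and 129 CPM (log2 ratio 1.34) and Pf4 at 1275 and 605 CPM (1.06), both past the call. Of 21 measured hypoxia genes 0 were higher and 3 lower, with a median of 0.05. The 3 were Bhlhe40, a transcriptional repressor (72.2 CPM against 170 CPM), Nos2, inducible nitric oxide synthase (54.1 CPM against 108 CPM), and Mt1, a metallothionein (564 CPM against 905 CPM). Hilpda stood at 902 CPM and 612 CPM, a ratio of 1.47 (1.29 to 1.69), just short of the call. Of 19 measured glycolysis genes 0 were higher and 1 lower (Pdk1, a pyruvate dehydrogenase kinase), with a median of -0.03.

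Of 16 measured chemokine genes 8 were higher and 1 lower, with a median of 0.63 that ranged from 0.28, with cells thinned to 1500 UMIs, to 0.67, without the mixed cells, where 8 of 15 were higher and 2 lower. Cxcl2 stood at 2405 CPM in ketogenic and 634 CPM in normal diet cells, a ratio of 3.79 (3.40 to 4.23). It was detected in 59 of 113 and 66 of 178 cells, and the 10 richest cells held 60.5% and 63.1% of its UMIs. After each cell of at least 1500 UMIs was thinned to that number, Cxcl2 was found in 46.4% (36.8 to 56.1) of 110 ketogenic and 26.3% (19.9 to 33.5) of 175 normal diet cells, against 1.52% and 1.85% of T and NK cell barcodes, whose median depths were 3676 and 3774 UMIs. Unthinned, the shares were 52.2% and 37.1%. The gene was thus both in more cells and concentrated in a few. Neutrophil markers summed to 562 and 572 CPM in the cells, and their part in the Cxcl2 difference was not tested; without the mixed cells the log2 ratio of Cxcl2 was 1.93, against 1.91 with them. Cxcl2 was also higher under the ketogenic diet in the comparison classes, at 1518 against 410 CPM in Arg1-positive C1q-positive macrophages, 679 against 167 CPM in Arg1-negative C1q-positive macrophages and 359 against 136 CPM in the monocyte gate.

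Ccl2, the main attractant of monocytes, stood at 4607 CPM in ketogenic and 2578 CPM in normal diet cells, with a ratio of 1.79 (1.68 to 1.90). Ccl3 stood at 499 and 240 CPM and Ccl4 at 1491 and 824 CPM. Ccl6 stood at 1505 and 872 CPM. Cxcl3 (345 and 97.5 CPM) rested on 17 and 15 cells, Cxcl9 (129 and 52.0 CPM) on 11 and 13, and Ccl24 (38.4 and 7.80 CPM) on 3 and 2. Ccl8 was the lower one, at 9.02 and 101 CPM, from 3 and 11 cells. Cxcl10, an interferon-induced chemokine, stood at 2534 and 2574 CPM and was not called.

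Of 19 measured inflammatory genes 6 were higher and 1 lower, with a median of 0.26, and of 0.13 when every cell had the same weight. Without the mixed cells 5 of 17 were higher and 1 lower, Ptgs2 (log2 ratio 0.21) losing its call. Il1b, interleukin 1 beta, stood at 1611 CPM in ketogenic and 723 CPM in normal diet cells, a ratio of 2.23 (1.99 to 2.49), and was detected in 67 and 100 cells. Nfkbia, the inhibitor of NF-kB that NF-kB itself induces, stood at 824 and 441 CPM, and Cd14, a co-receptor for bacterial lipopolysaccharide, at 751 and 411 CPM. Nlrp3, Tnf and Ptgs2 were the others, with Tnf at 47.4 and 26.0 CPM, a ratio of 1.82 whose interval (0.94 to 3.54) held 1. Il18bp, which neutralizes interleukin 18, was lower, at 67.7 and 133 CPM. Il1rn, the interleukin 1 receptor antagonist, stood at 413 and 452 CPM.

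Plaur, the urokinase receptor, was spread widely, at 499 CPM in ketogenic and 168 CPM in normal diet cells, a ratio of 2.97 (2.38 to 3.72). After thinning it was found in 49.1% (39.4 to 58.8) of ketogenic and 23.4% (17.4 to 30.4) of normal diet cells, against 1.52% and 0.369% of T and NK cell barcodes. The thinned share was also higher under the ketogenic diet in the comparison classes, at 38.2% and 17.0% of Arg1-positive C1q-positive macrophages, 28.8% and 14.2% of Arg1-negative C1q-positive macrophages and 46.2% and 28.4% of the monocyte gate. Plaur was the only higher gene of 19 measured in the matrix list, with all cells kept and a median of -0.09. Without the mixed cells 4 of 17 were higher and 2 lower, with a median of 0.44. Mmp13 was lower, at 31.6 and 92.3 CPM from 8 and 22 cells, but not called without the mixed cells (log2 ratio 0.52), and Mmp9 was lower only through 1 barcode described further on.

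Of 21 measured classical monocyte genes 3 were higher and 0 lower, with a median of 0.25. Chil3, a chitinase-like protein, stood at 907 CPM in ketogenic and 357 CPM in normal diet cells, Hp at 140 and 55.9 CPM, and Napsa, an aspartic protease, at 226 and 144 CPM. Barcodes of at most 100 UMIs differed the same way for Chil3 (633 and 229 CPM) and Hp (144 and 73.7 CPM), and with this free RNA profile subtracted the log2 ratio was 1.31 for Chil3 and 1.20 for Hp, against 1.32 and 1.19 as reported. Ly6c2 stood at 3371 and 3393 CPM. Of 21 measured C1q macrophage genes 1 was higher and 2 lower, no larger a share than the 11.2% of all genes, with a median of -0.34. Adgre1 stood at 76.7 and 144 CPM and Cx3cr1, the fractalkine receptor, at 42.9 and 101 CPM. Ms4a7, a membrane protein of macrophages, stood at 684 and 1024 CPM. Cd81 was the higher one, with 66.7% of its ketogenic diet UMIs in 1 barcode.

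**Figure D4:**
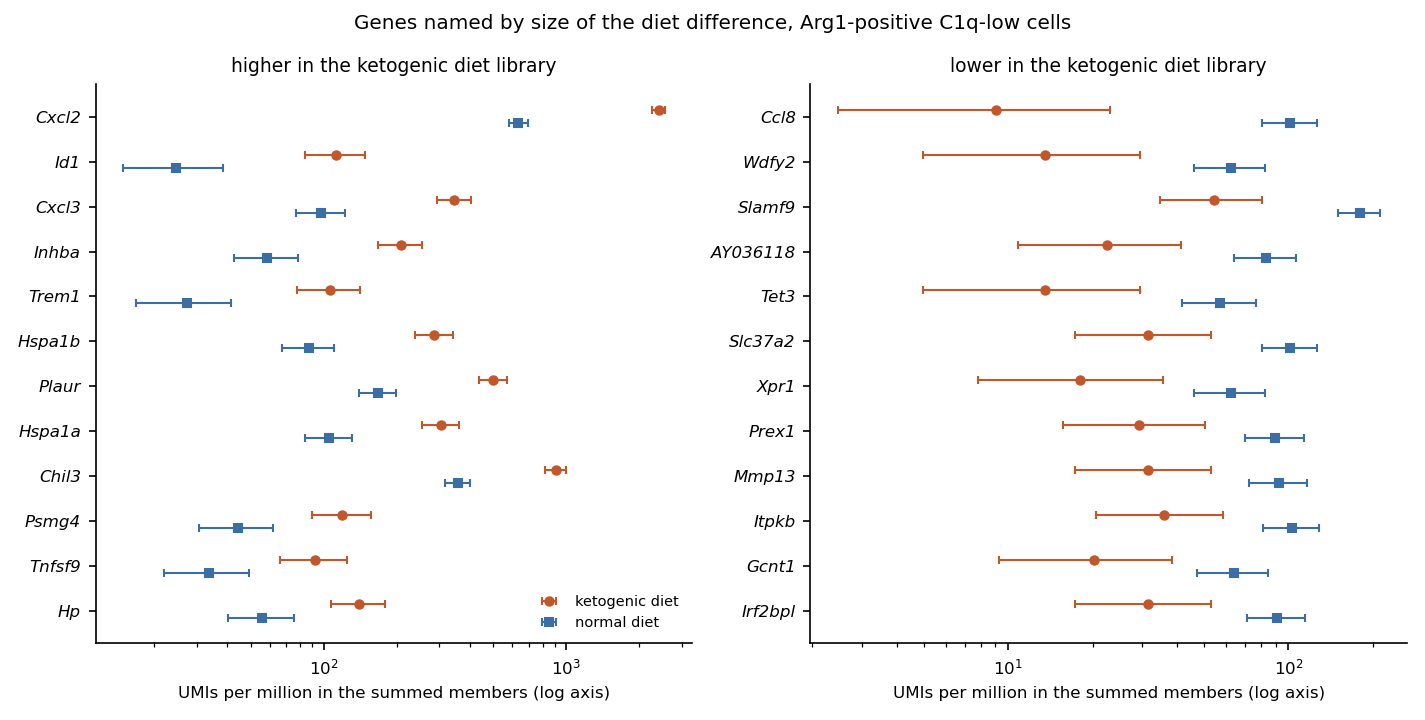
Levels (CPM, log axis, exact 95% counting intervals) of the 12 genes with the highest and the 12 with the lowest ratio between diets in Arg1-positive C1q-low cells, ketogenic diet as orange circles above normal diet as blue squares. Cxcl2 is the most abundant of the higher genes, at 2405 and 634 CPM, while the lower genes are at most 179 CPM in either library.

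Of 41 measured genes that type I interferon induces, 0 were higher and 6 lower, a share near the 11.2% of all genes, with a median of -0.30 and of -0.20 without the mixed cells. Rsad2, the antiviral protein viperin, stood at 961 CPM in ketogenic and 2019 CPM in normal diet cells, a ratio of 0.48 (0.43 to 0.53). Oas2, Ifit3b, Ddx58 (the RNA sensor RIG-I), Oasl1 and Cmpk2 were the others, Ifit3b (-0.48) and Cmpk2 (-0.44) losing their call without the mixed cells. Isg15, a ubiquitin-like modifier, stood at 4016 and 3909 CPM and Bst2, tetherin, at 1782 and 1726 CPM, so some abundant members were close. Rsad2 was also lower under the ketogenic diet in the comparison classes, at 663 against 1033 CPM in Arg1-negative C1q-positive macrophages and 856 against 1594 CPM in the monocyte gate. Of 24 measured interferon-gamma genes 1 was higher (Cxcl9) and 4 lower, Gbp6, Gbp7, Iigp1 and Nos2, with a median of -0.25.

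Arginine metabolism split. Of 14 measured genes 3 were higher, Ass1 (argininosuccinate synthase, which rebuilds arginine; 320 CPM against 204 CPM), Arg2 (the mitochondrial arginase; 40.6 CPM against 15.6 CPM; log2 ratio 0.98, and 0.28 without the mixed cells) and Glul (glutamine synthetase; 72.2 CPM against 35.1 CPM). Nos2, which competes with arginase for arginine, and Gatm, which starts creatine synthesis (54.1 CPM against 136 CPM), were lower. Odc1, the first enzyme of polyamine synthesis, stood at 72.2 and 94.9 CPM. Acod1, which makes itaconate, stood at 149 and 200 CPM.

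Of 10 measured heme and iron genes 0 were called, with Fth1 at 27343 CPM in ketogenic and 20581 CPM in normal diet cells. Of 13 NRF2 targets only Srxn1 was called, higher at 42.9 and 24.7 CPM. Its log2 ratio was 0.61 as reported, 0.07 with the chosen cells thinned to 1500 UMIs and 0.94 without the mixed cells. The lipid-associated list had 1 gene higher and 3 lower of 24, Lpl, Abca1 and Lipa being lower. Without the mixed cells Lpl (-0.42) and Abca1 (-0.14) lost their call. Fabp4, the higher one, had 22 of its 25 ketogenic diet UMIs in 1 cell. MHC class II genes had 0 called of 6, with a median of 0.14, but 3 lower of 6 and a median of -0.72 without the mixed cells. Of 11 integrated stress response genes 3 were higher, Ppp1r15a, Cebpb and Mthfd2, with Cebpb, a transcription factor of myeloid cells, at 869 and 463 CPM. The median of that list was 0.12, and 0.41 without the mixed cells, where 4 of 9 were higher and 0 lower.

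Of 22 immediate early and heat shock genes 4 were higher, Hspa1a, Hspa1b, Nr4a1 and Dnajb1. Hspa1a and Hspa1b are near-identical copies whose reads cannot be told apart with certainty, and both rested on few cells (13 and 18 for Hspa1a). Fos stood at 1645 and 1217 CPM and was not called. Of 5 cell cycle genes measured 0 were called. The checkpoint and suppression list had 2 of 18 higher, Trem1 (a receptor that amplifies inflammation; 106 and 27.3 CPM; also on the neutrophil marker list) and Tnfsf9 (4-1BB ligand), and Pvr lower. The log2 ratio of Tnfsf9 was 1.23, and 0.14 without the mixed cells. The alternative activation list had Chil3, Klf4 and Ccl24 higher and Tgm2 and Retnla lower of 10, with Retnla resting on 1 and 4 cells, and Klf4 and Tgm2 losing their call and Ccl24 its direction (-0.67) without the mixed cells. The cathepsin list had 1 of 12 genes lower, Ctsk, with 96.1% of its normal diet UMIs in 1 barcode. Over the other normal diet cells Ctsk stood at 36.5 CPM, against 13.5 CPM in ketogenic diet cells, which held 6 UMIs of it.

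Other genes at the top by ratio were Id1, an inhibitor of transcription factors (113 and 24.7 CPM), Inhba (208 and 58.5 CPM, from 23 and 11 cells) and Psmg4, a proteasome assembly factor (120 and 44.2 CPM). Id1 was also higher under the ketogenic diet in Arg1-negative C1q-positive macrophages, at 94.3 against 19.1 CPM. At the bottom stood Slamf9, a surface receptor of macrophages (54.1 and 179 CPM, from 16 and 61 cells), Wdfy2 (13.5 and 62.4 CPM) and the DNA demethylase gene Tet3 (13.5 and 57.2 CPM). Slamf9 was lower as well in Arg1-negative C1q-positive macrophages, at 299 against 387 CPM.

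Mitochondrially encoded RNA was lower under the ketogenic diet in these cells and in the 3 comparison classes. The median share per cell was 0.600% and 1.29% in these cells, 0.723% and 1.11% in Arg1-positive C1q-positive macrophages, 0.710% and 1.19% in Arg1-negative C1q-positive macrophages and 1.39% and 2.08% in the monocyte gate, and library and diet cannot be told apart. In these cells, of 11 measured genes of that kind 9 were lower under the ketogenic diet, with a median of -0.83 and sums of 9580 CPM in ketogenic and 17453 CPM in normal diet cells. Leaving mitochondrial and ribosomal genes out of the totals gave 251 higher and 650 lower genes over all.

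**Figure D5:**
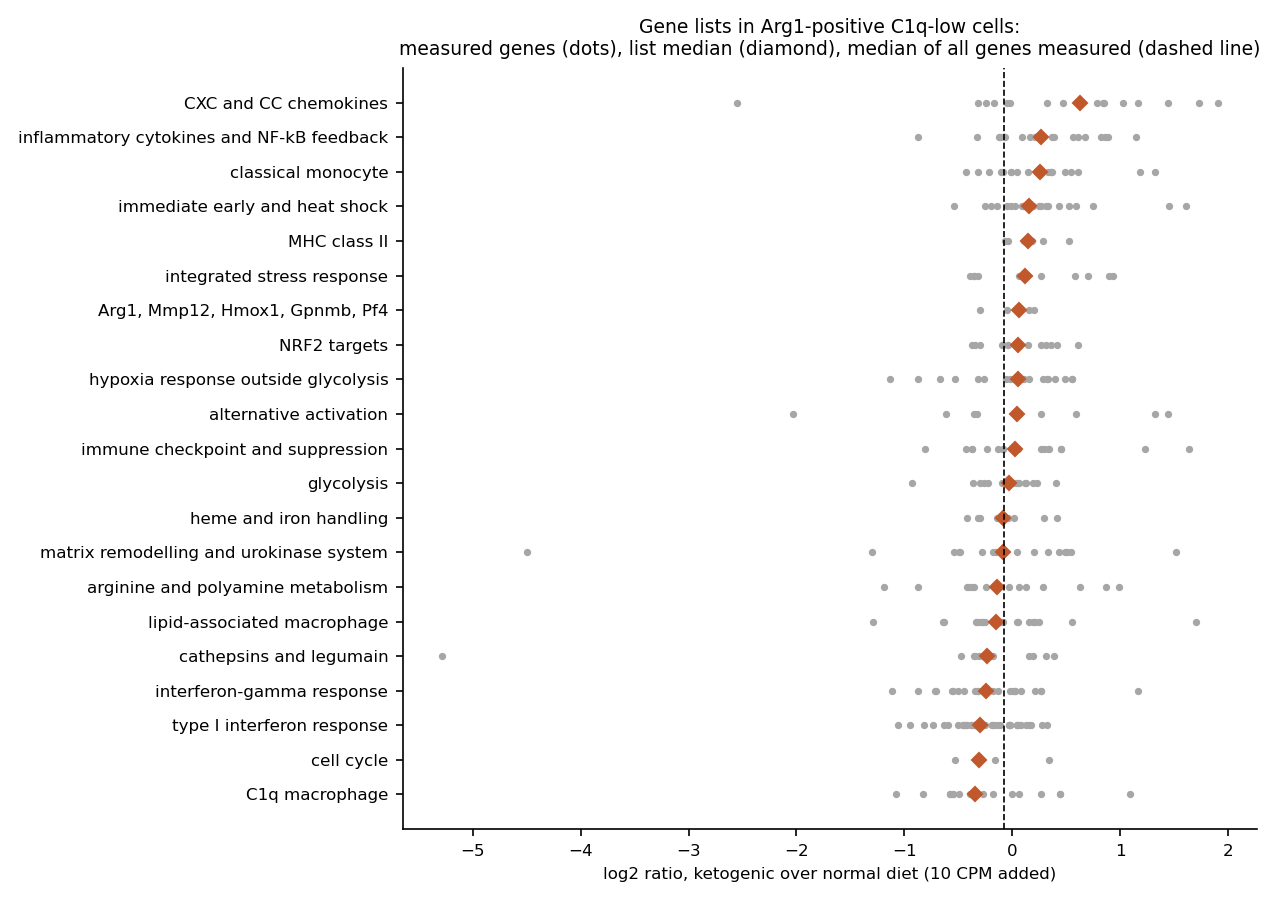
Log2 ratio, ketogenic over normal diet, of the measured genes of each list in Arg1-positive C1q-low cells (gray dots), with the list median as a diamond and the median of all 5152 genes as a dashed line at -0.08. Chemokine, inflammatory and monocyte lists lie to the right, C1q macrophage, cell cycle and interferon medians to the left of the line, and the hypoxia and glycolysis medians lie at 0.05 and -0.03.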

How the data were processed

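CD45-enriched tumor cells were profiled by droplet single-cell RNA sequencing (Chromium 3 prime chemistry, per the labels' protocols), 1 library per diet. The deposited values are raw counts of UMIs per gene and barcode, not filtered to cells; per the file headers they were written by Cell Ranger version 4, while the submitters' processing notes list Cell Ranger 6.0.0, Seurat 3.2.0, GRCm38 and mm10. How doublets were treated by the authors is not given in the sources used here. Here no caller was run, the rule's lymphoid and S100a8/S100a9 limits removed some mixed barcodes, and an alternative left out cells holding 3 or more UMIs, from 2 or more genes, of another cell type's markers.

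UMIs were summed over the selected cells of each library and scaled to CPM with Python 3.11.15, numpy 2.4.6, scipy 1.17.1 and pandas 2.3.3; figures were drawn with matplotlib 3.10.9. Genes measured had at least 20 UMIs over both libraries and a mean of at least 20 CPM. Log2 ratios added 10 CPM, and a gene was called at 1.5-fold between diets or 2-fold in both libraries against other cells. Shares carry Clopper-Pearson intervals, levels exact Poisson intervals and ratios exact conditional intervals. PCR copies are collapsed by UMIs, but cells of 1 pool are not replicates, so intervals cover counting error only. Levels per gene are not scaled by length, as suits 3 prime counts, and are compared between cells, not between genes.

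The genes named are the 12 highest and 12 lowest between diets with at least 50 UMIs, the 10 highest and 10 lowest against each other class, the class markers, members of 21 lists past the threshold and up to 4 more per list. Genes of the rule, mitochondrial, ribosomal, hemoglobin and unnamed gene models, and genes with over 50% of a library's UMIs in 1 barcode were left out of the ranked sets. The members and lists were chosen with earlier results of these data known. The calculation was tested on simulated counts of abundant genes, with differences larger than the threshold and no spread between cells. Calls near the threshold, or in genes resting on few cells, were not covered by it. Promoter windows are RefSeq's, on GRCm38.p6. Aldoa and Ddit3 (more than 1 identifier per symbol), Mx1, Mx2, Cxcl11 and Lilrb4b were not used here.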

Additional observations from a re-analysis of the deposited data

How the results depend on the processing

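No paired analysis was possible because there is 1 library per diet. The share of passing barcodes stayed lower under the ketogenic diet under all 8 alternatives to the rule, with log2 ratios of -1.01 to -0.44, while the share of gated myeloid barcodes was -0.15 as reported and 0.13 with no C1q UMI allowed. The counts of genes higher (219) and lower (577) between diets depended on the level of genes admitted: 44 and 132 with at least 100 UMIs, 539 and 1316 with no minimum, and 329 higher with 1 CPM added; fewer genes are tested under the first. Against Arg1-positive C1q-positive macrophages, genes 2-fold higher numbered 9 as reported and 15 with no C1q UMI allowed, and genes 2-fold lower 7 and 17 without mixed barcodes; the cause was not tested. Medians of the 21 lists gave 336 values, 225 within the counting interval around the reported median and 111 outside it. Of 1248 values for 78 called or named genes, 14 reversed. Mmp9 was -4.49 as reported and 0.19 without the barcode richest in Ctsk (an alternative added after seeing the data), 0.21 at an Arg1 minimum of 3, 0.11 with no C1q UMI, 0.18 at a 5% mitochondrial limit and 0.36 with the rule applied after thinning. Thinning before the rule also gave Cd81 -2.01, Cmpk2 0.017, Ctsk 0.092, Dnajb1 -0.55, Ifit3b 0.30 and Ppp1r15a -0.10. Leaving out mixed barcodes (35 and 72 cells) ended or reversed the call of 12 of 74 called genes, Ccl24 at -0.67 and Mmp13 at 0.52 among them, and brought Mmp12 and Pf4 past it, and thinning the chosen cells, also added after seeing the data, gave Mthfd2 -0.088. Cxcl2 stayed between 1.53 and 1.94, Plaur between 1.40 and 1.87, Il1b between 1.05 and 1.62 and Rsad2 between -1.28 and -0.93. With 113 and 178 cells, genes below about 20 CPM were not compared.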

Other observations

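One normal diet barcode met the rule with 2 Arg1 UMIs but was unlike the other cells. It held 30351 UMIs and 4588 genes, which was 3.95% of all UMIs of the normal diet cells. Ctsk, the collagen-cutting protease cathepsin K, gave 672 UMIs in it, against 27 UMIs over the other normal diet cells and 6 over the ketogenic diet cells. Acp5, tartrate-resistant acid phosphatase, gave 438 UMIs, Mmp9 (gelatinase B) 242, Ckb (creatine kinase B) 194, Ocstamp 29, Atp6v0d2 25 and Dcstamp 11. All 10 UMIs of Oscar, the osteoclast-associated receptor, among passing normal diet barcodes were in this barcode, and the ketogenic diet library held 1. These genes are known from osteoclasts, the bone-resorbing relatives of macrophages, and were searched after the barcode had been seen. It had 0 UMIs of Lyz2, Adgre1 and Mmp12, against 36 of Cd68 and 22 of Csf1r. Whether it was 1 cell or several was not tested.

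Some other genes also rested on single cells. Slpi, a protease inhibitor, had 496 of its 915 normal diet UMIs in 1 cell, and Igkc, an immunoglobulin chain, had 48 of 49.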
